A study of Macaca fascicularis with 2 samples.

Results

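The expression of 9 genes used to mark progenitor cells and fibroblasts was described in single cells of cartilage and intervertebral disc. The genes were *THY1*, *ENG*, *NT5E*, *PROCR*, *TEK*, *LEPR*, *ISLR*, *PRSS23* and *CTSK*, chosen by name from the 21371 genes counted, and all 9 were present in the matrix. Articular cartilage (AC) of the femoral condyle and nucleus pulposus (NP), the gelatinous core of the disc, taken between lumbar vertebrae L3 and L4, came from male, wild type cynomolgus monkeys (*Macaca fascicularis*) that were 3 years old, and the labels list 3 tissue samples, which came from 2 monkeys. The cells of all tissue samples carried 1 of 4 surface tags (A951 to A954), were sorted as live and tagged, and were pooled in 1 TAS-seq library, a method that amplifies the whole transcriptome from beads. The labels do not pair the tags with the tissues or the monkeys, so tags are given side by side and no tissue is compared. All differences therefore come from 1 library, carry no replicate check and have no p-value.

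Of 5723 cells, 5653 with a single tag passed the limits on genes and mitochondrial reads. They were divided by the genes that define 2 cell types. Notochordal cells (NCs) are remnants of the embryonic notochord in the NP, and 310 cells with at least 5 reads of both *KRT19*, a keratin, and *TBXT*, the notochordal transcription factor brachyury, were taken as NCs. Another 660 cells had at least 100 reads per 1000000 (rpm) of both *ASPN* and *CILP*, extracellular matrix genes of fibrocartilage, and are called *ASPN*/*CILP*-positive cells. No cell met both rules, and 4683 other cells remained. Tag A952 held 236 NCs and A951 held 67, whereas A953 held 5 and A954 held 2. The *ASPN*/*CILP*-positive cells numbered 36, 38, 220 and 366 under A951, A952, A953 and A954.

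Depth differed between the groups. The median was 186370 reads per cell in NCs, 271695 in *ASPN*/*CILP*-positive cells and 191905 in other cells, with 4061, 4540.5 and 3722 genes detected. Most marker genes that were not used to define the groups followed the names. *CDH2*, the N-cadherin of notochordal cells, stood at 120 rpm in NCs and 1.22 rpm in other cells, and the notochordal ligand *SHH* stood at 98.7 and 0.937 rpm. *FOXA2*, a transcription factor of the notochord, went the other way, at 0.908 rpm in NCs and 6.22 rpm in other cells, with a read in 6.45% and 7.77% of them. *CRTAC1*, a cartilage matrix gene, stood at 1803 rpm in *ASPN*/*CILP*-positive cells and 473 rpm in other cells. The authors list it with *ASPN* and *CILP* as markers of the same cluster, in data that include these cells, so it is not independent of the rule. Of other fibrocartilage genes listed, *IGFBP6* was also 2-fold higher, but *PRG4* and *CILP2* were not. The keratins *KRT8* and *KRT18*, further markers of NCs, were not analysed here.

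The 9 genes come from different systems of cell labelling. *THY1* (CD90), *ENG* (CD105) and *NT5E* (CD73) encode the proteins by which cultured mesenchymal stromal cells are customarily sorted, *PROCR* (CD201) and *LEPR* mark stromal progenitors in several tissues, and *TEK* has been used to mark progenitors of the NP as well as endothelium. *ISLR* encodes Meflin, a protein of stromal progenitors and fibroblasts that is anchored to the membrane or secreted, while *PRSS23* encodes a secreted serine protease and *CTSK* the collagen-degrading protease cathepsin K of lysosomes. The last pair are thus not surface proteins, and RNA levels do not give the amount of protein on the surface.

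Most of these genes were low in NCs and ran from moderate to high in both other groups. *THY1*, *ENG*, *NT5E* and *PROCR* were each more than 7-fold lower in NCs than in other cells. *PRSS23* differed, with NCs and *ASPN*/*CILP*-positive cells at nearly the same pooled level and other cells lowest. Its excess in NCs over other cells was mostly that of tag A952 (log2 ratio 1.62, against 0.27 under A951). The 2-fold call of that excess was lost in some settings. *TEK* and *LEPR* were close to absent everywhere. Levels are pooled rpm, the reads of a gene over all cells of a group per 1000000 reads of that group. They are not corrected for gene length, and longer genes can gather more reads, so a gene named as leading a list is the one with most reads and not the one with most transcripts.

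**Figure D1:**
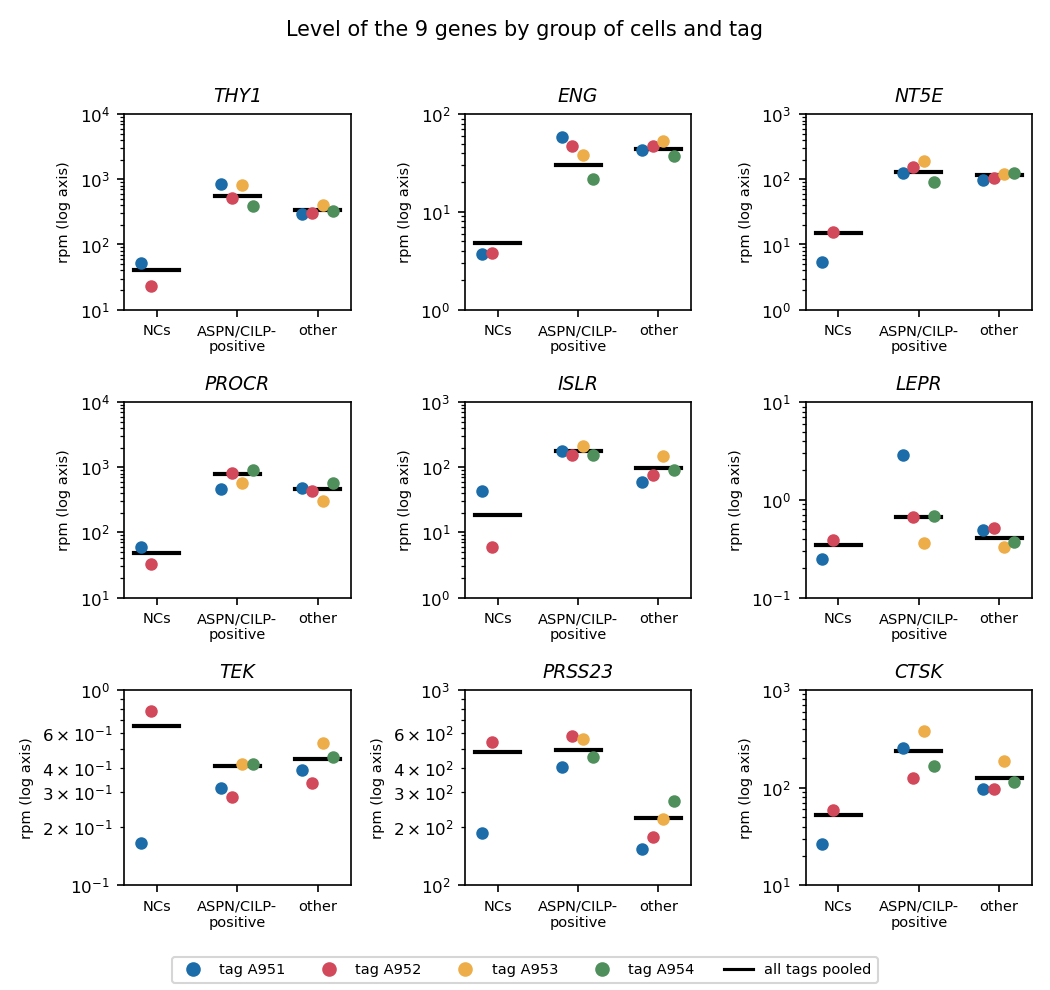
Level of each gene in rpm (log axis, range differs by panel) in NCs, *ASPN*/*CILP*-positive cells and other cells. Dots are tags with at least 20 cells of the group and lines are all tags pooled; *THY1* dots of NCs lie at 52.0 and 23.4 rpm, under all dots of the other groups.

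*THY1*, a small glycoprotein anchored on the surface of fibroblasts and stromal cells, had 40.3 rpm in NCs (95% exact Poisson interval 38.8 to 41.9), 563 rpm in *ASPN*/*CILP*-positive cells (560 to 566) and 337 rpm in other cells (336 to 338). These intervals cover counting error only, and reads without molecular identifiers include PCR copies, so they are narrower than the true error. Under the tags, NCs had 52.0 rpm (A951) and 23.4 rpm (A952), and other cells had 299, 300.4, 398 and 331 rpm from A951 to A954. Without 1 cell the A951 level was 24.0 rpm. The NC levels under these tags, the only ones with at least 20 NCs, lay below those of other cells under all 4 tags. *THY1* in *ASPN*/*CILP*-positive cells stood at 844, 516, 829 and 388 rpm, above other cells under each of the tags, with a log2 ratio from 0.23 in A954 to 1.50 in A951.

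*ENG*, the co-receptor that binds ligands of the TGF-β and BMP family, had 4.81 rpm in NCs, 30.0 rpm in *ASPN*/*CILP*-positive cells and 43.7 rpm in other cells. NCs had 3.69 rpm under A951 and 3.76 rpm under A952, where other cells had 43.4 and 46.9 rpm, and the A951 level was 1.39 rpm without 1 cell. The log2 ratio of NCs to other cells was −3.56 and −3.64 in these tags. *ENG* was the only one of the 9 genes besides *TEK* with a pooled level under that of other cells in *ASPN*/*CILP*-positive cells. The sign of that difference varied, since the log2 ratio was 0.42 and 0.02 under A951 and A952 and −0.47 and −0.80 under A953 and A954. Without 1 cell each, *ASPN*/*CILP*-positive cells of A951 and A952 stood at 43.1 and 33.0 rpm, below the 43.4 and 46.9 rpm of other cells. Other cells without their own top cell had 42.2 and 45.7 rpm. With both groups treated alike, *ASPN*/*CILP*-positive cells were thus lower under A952 but not under A951.

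*NT5E*, the surface enzyme that makes adenosine from AMP, had 15.0, 129 and 117 rpm in NCs, *ASPN*/*CILP*-positive cells and other cells. NCs stood at 5.33 rpm in A951 (1.80 rpm without 1 cell) and 15.8 rpm in A952, and other cells between 98.0 and 127 rpm under the 4 tags. Between *ASPN*/*CILP*-positive and other cells the log2 ratio was 0.14 pooled, and it ran from −0.49 under A954 to 0.67 under A953. Under A951 and A952 it was above 0, but without the top cell *ASPN*/*CILP*-positive cells of these tags stood at 84.9 and 88.9 rpm, below the 98.0 and 106 rpm of other cells. The direction of *NT5E* in *ASPN*/*CILP*-positive cells thus differed between tags, whereas NCs were lowest in both tags that held enough of them.

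*PROCR*, the receptor for protein C of the anticoagulant pathway, had 47.9 rpm in NCs, 774 rpm in *ASPN*/*CILP*-positive cells and 468 rpm in other cells. NCs had 59.3 rpm under A951, or 30.3 rpm without 1 cell, and 32.7 rpm under A952. Other cells had 475, 434, 304 and 575 rpm, and *ASPN*/*CILP*-positive cells 471, 811, 564 and 918 rpm, from A951 to A954. The level was higher in *ASPN*/*CILP*-positive cells under A952, A953 and A954 and nearly equal under A951. The A952 excess rested largely on 1 cell, without which the level was 418 rpm, below the 434 rpm of other cells. Other cells of A952 without their own top cell had 416 rpm, nearly equal.

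*ISLR* had 18.2, 175 and 96.5 rpm in NCs, *ASPN*/*CILP*-positive cells and other cells. Under A952 NCs had 5.88 rpm and other cells 77.1 rpm, but under A951 they had 43.8 and 58.5 rpm, so that the log2 ratio was −3.71 in the former tag and −0.42 in the latter. The A951 value rested on 1 cell, which had 1584 rpm of *ISLR* and also 1230 rpm of *PROCR*, and without it NCs of A951 stood at 6.47 rpm. The A952 level was 3.21 rpm without its top cell. The *ASPN*/*CILP*-positive cells had 178, 152, 214 and 155 rpm of *ISLR*, above the 58.5, 77.1, 146 and 90.7 rpm of other cells under each of the tags.

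*PRSS23* had 480 rpm in NCs, 493 rpm in *ASPN*/*CILP*-positive cells and 222 rpm in other cells. NCs had 185 rpm in A951 and 543 rpm in A952, against 153 and 177 rpm in other cells of these tags. Without 1 cell NCs of A951 also stood at 153 rpm. The excess in NCs was thus mostly that of A952, with a log2 ratio of 1.62 against 0.27 in A951. In *ASPN*/*CILP*-positive cells it had 406, 579, 561 and 453 rpm, each above the other cells of the same tag (153, 177, 219 and 270 rpm). Without 1 cell the A952 level of *ASPN*/*CILP*-positive cells was 358 rpm, still above other cells.

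*CTSK* had 52.7 rpm in NCs, 239 rpm in *ASPN*/*CILP*-positive cells and 126 rpm in other cells. NCs had 26.8 rpm in A951 (16.0 rpm without 1 cell) and 59.4 rpm in A952, where other cells had 97.5 and 97.3 rpm. The log2 ratios of *CTSK* in these tags, −1.86 and −0.71, were smaller in size than those of *THY1*, *ENG*, *NT5E* and *PROCR*. In *ASPN*/*CILP*-positive cells it had 254, 126, 377 and 166 rpm, above other cells under each of the tags.

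To place these differences among all genes, a gene was tested if at least 10% of the cells of either group had a read, and called if its pooled level differed by 2-fold or more. Of 9931 genes tested between NCs and other cells, 24.9% were higher in NCs and 11.6% were lower. Fewer genes were called in both directions as means of log2(rpm + 1), with the counts given in the last section. Of the 9 genes, 7 were tested, *PRSS23* was higher and 6 were lower (*THY1*, *ENG*, *NT5E*, *PROCR*, *ISLR* and *CTSK*). The call of *PRSS23* was lost in thinned cells (log2 ratio 0.97), with the mean over cells of rpm (0.94) and without tag A952 (0.18), against 1.11 here. The median log2 ratio was −2.41 over the 9 genes, with *TEK* and *LEPR* included though not tested, and 0.32 over all genes tested. That of the 9 genes ran from −3.08 to −1.41 with other ways of averaging. Relative to the general shift of 0.32, *PRSS23* was higher by 0.80 on the log2 scale, short of 2-fold, and the log2 ratios of *THY1*, *ENG*, *NT5E* and *PROCR* lay between −3.28 and −3.60. With the call required under both A951 and A952, 17.0% of the genes were higher and 9.21% lower. *THY1*, *ENG*, *NT5E* and *PROCR* were called lower on those terms and no member was called higher.

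Against *ASPN*/*CILP*-positive cells, 25.1% of 10351 genes were higher in NCs and 11.1% were lower. Fewer genes were called higher as means of log2(rpm + 1). None of the 9 genes was higher and 6 were lower, the same 6. Under both A951 and A952, 19.2% of the genes were called higher and 7.46% lower, and these 6 were among the latter. The pooled levels of *THY1* and *PROCR* were 14.0-fold and 16.1-fold lower in NCs. *PRSS23* had a log2 ratio of −0.04 and was not called, with −1.13 under A951 and −0.09 under A952.

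Between *ASPN*/*CILP*-positive and other cells far fewer genes differed, 1.69% of 10053 higher and 3.98% lower. All 9 members were tested and *PRSS23* was called higher (2.22-fold), while none was called lower. Under each of the 4 tags, 0.159% of the genes were called higher and 0.895% lower, and no member was among them. *CTSK* (1.89-fold), *ISLR* (1.82-fold), *THY1* (1.67-fold) and *PROCR* (1.65-fold) fell short of the 2-fold call in the pooled cells. That count depended on the averaging, since these 4 and *PRSS23* were past 2-fold as means of log2(rpm + 1), beside 441 of all genes in place of 170, and all of them but *PROCR* without tag A954, beside 241. As means of log2(rpm + 1) far fewer genes were called lower, and higher calls outnumbered lower ones, the reverse of the pooled cells. *THY1*, *ISLR*, *CTSK* and *PRSS23* were above other cells in 4 of 4 tags and *PROCR* in 3 of 4. For *PROCR* it was 2 of 4 without the top *ASPN*/*CILP*-positive cell of A952. With the top cell of both groups left out there, the levels were nearly equal (418 and 416 rpm).

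**Figure D2:**
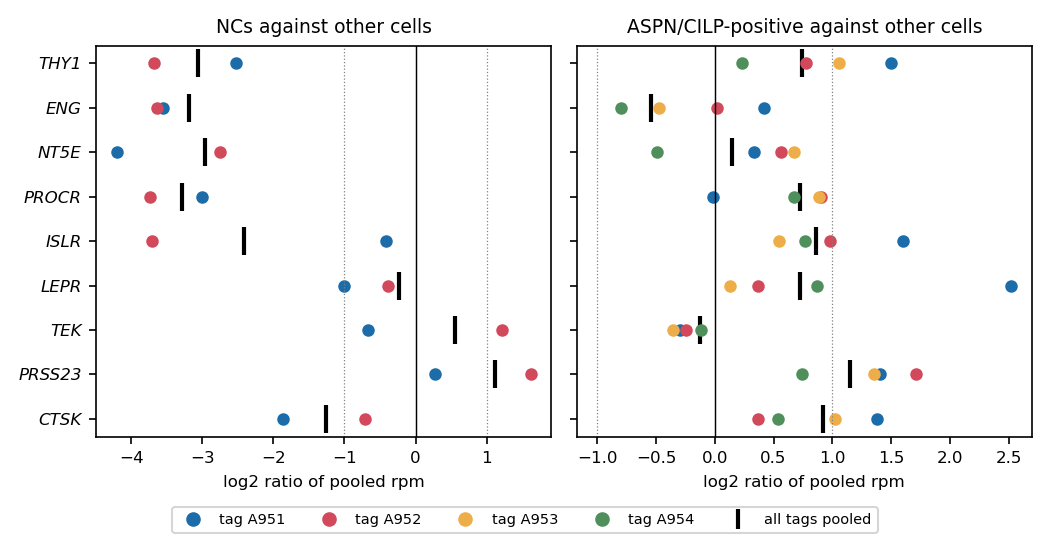
log2 ratio of pooled rpm for each gene, NCs against other cells (left) and *ASPN*/*CILP*-positive against other cells (right). Dots are tags with at least 20 cells of both groups, bars all tags pooled and dotted lines the 2-fold limits; *THY1*, *ENG*, *NT5E* and *PROCR* lie left of −1 under both tags in NCs.

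Shares of cells with a read were then compared with these levels. A read of *THY1* was found in 67.4% of NCs (exact Clopper-Pearson interval 61.9 to 72.6), 95.9% of *ASPN*/*CILP*-positive cells and 84.4% of other cells. With at least 5 reads the shares were 11.0%, 82.6% and 57.9%. A *THY1*-positive NC had a median of 2 reads, and a positive *ASPN*/*CILP*-positive or other cell had 86 and 35 reads. Most NCs with the gene thus held only a few reads of it.

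*PROCR* had the same pattern, with a read in 75.5% of NCs but at least 5 reads in 22.3%, against 95.6% and 83.0% of *ASPN*/*CILP*-positive cells. At least 5 reads of *ENG* were found in 2.26% of NCs, 22.6% of *ASPN*/*CILP*-positive cells and 22.6% of other cells. For *NT5E* these shares were 3.87%, 52.3% and 41.4%. Between *ASPN*/*CILP*-positive and other cells the widest gap was that of *PRSS23* (76.4% against 44.5%), followed by *CTSK* (68.2% against 39.0%), *PROCR* (83.0% against 54.7%) and *ISLR* (53.9% against 26.1%). *PRSS23* was the member found most often in NCs, with at least 5 reads in 60.6%.

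**Figure D3:**
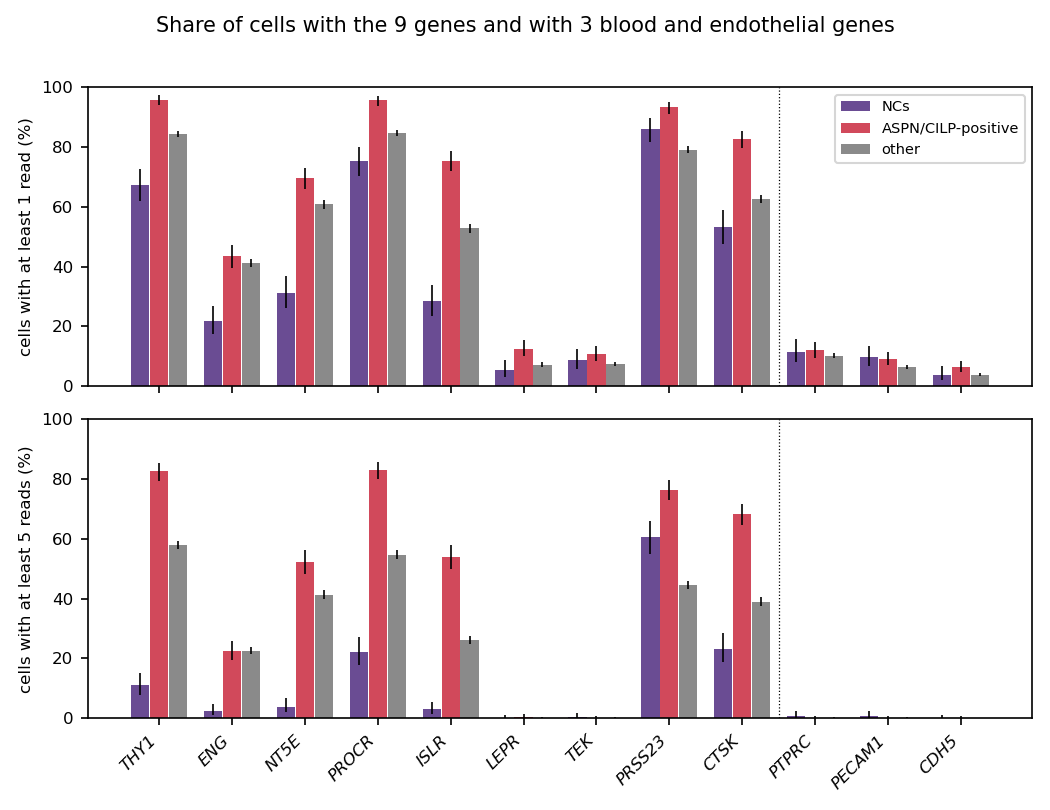
Share of cells with at least 1 read (top) and at least 5 reads (bottom) in the 3 groups of cells, with 95% exact binomial intervals. The genes right of the dotted line mark blood cells and endothelium; *LEPR* and *TEK* lie at 12.6% or less at 1 read and 0.455% or less at 5 reads, near *PTPRC* (12.0% and 0.645% or less).

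Because *ASPN*/*CILP*-positive cells had more reads, every cell was also thinned to 50000 reads, which left out 11 NCs, 12 *ASPN*/*CILP*-positive cells and 184 other cells that were shallower. A read of *THY1* then remained in 36.1% of NCs, 87.2% of *ASPN*/*CILP*-positive cells and 70.2% of other cells. *ISLR* was found in 10.4%, 57.6% and 34.3%, *PRSS23* in 74.9%, 84.6% and 58.9%, and *CTSK* in 34.1%, 71.1% and 47.0%. *ENG* was found in 27.3% of *ASPN*/*CILP*-positive cells and 27.8% of other cells. At equal depth the shares of *THY1*, *PROCR*, *ISLR*, *PRSS23* and *CTSK* were thus higher in *ASPN*/*CILP*-positive cells, with the same sign under each of the tags, and no test was made of their size. *NT5E* was found in 37.1%, 37.8%, 62.5% and 54.7% of *ASPN*/*CILP*-positive cells and 44.1%, 45.3%, 47.2% and 52.4% of other cells from A951 to A954, so its direction differed between tags.

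*TEK*, the receptor for angiopoietins, had 43 reads in all NCs, 84 in *ASPN*/*CILP*-positive cells and 475 in other cells, which gave 0.651, 0.407 and 0.444 rpm. Its share of cells with a read was 8.71%, 10.8% and 7.47%. Of the positive cells, 90.4% had a single read, and 0.106% of all cells had 5 or more. One NC of A952 held 37.2% of all *TEK* reads in NCs, at 56.8 rpm.

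*LEPR*, the leptin receptor, had 0.348, 0.674 and 0.407 rpm in NCs, *ASPN*/*CILP*-positive cells and other cells, and a share of 5.48%, 12.6% and 7.20%. Genes that these cells should lack were found in similar shares. *PTPRC*, the leukocyte antigen CD45, had a read in 11.6%, 12.0% and 10.2% of the 3 groups, the endothelial *PECAM1* in 9.68%, 9.09% and 6.45%, the endothelial *CDH5*, the rarest of those named here, in 3.87%, 6.36% and 3.80%, and *KRT19* in 12.6% of *ASPN*/*CILP*-positive cells. The shares of *TEK* and *LEPR* lay within the range of these genes and were read neither as expression nor as a difference between groups. After thinning, *TEK* was found in 1.67%, 1.85% and 1.84% of the groups and *LEPR* in 1.34%, 1.85% and 1.69%.

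The NC with most reads differed between most of the genes. The NC with most reads of each gene held 24.8% of the *THY1* reads in NCs, 24.5% of those of *ENG*, 23.4% of *NT5E*, 22.6% of *PROCR* and 37.9% of *ISLR*. For *PRSS23* and *CTSK* it held 3.88% and 6.00%. These top cells were 8 different NCs for the 9 genes, and 1 NC of A953 led both *THY1* (1180 rpm) and *PROCR* (1282 rpm), with 115 reads of *KRT19* and 230 of *TBXT*. Its *ENG* count was 0. The NC that led *ISLR* also had 386 rpm of *THY1* and 1230 rpm of *PROCR*.

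The 5 NCs of A953 had higher pooled levels than those of the other tags, 365 rpm of *THY1*, 336 rpm of *PROCR* and 161 rpm of *ISLR*, and a median of 494207 reads per cell. Without their top cell the *PROCR* level was 20.3 rpm and that of *THY1* 73.6 rpm. When the NCs of A953 and A954 were left out, the log2 ratio to other cells was −3.54 for *THY1*, −3.54 for *ENG*, −3.63 for *PROCR* and −2.87 for *ISLR*. For these 4 genes the difference of NCs from other cells was at least as large without these 7 cells. It was nearly unchanged for *CTSK* (−1.25) and *PRSS23* (1.10).

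Genes abundant in other cells were also found at low levels in NCs. The lubricant gene *PRG4* had 1138 rpm in NCs and 11367 rpm in other cells, *COL2A1* of cartilage collagen had 1269 and 21617 rpm, and *COL1A1* had 10.8 and 646 rpm. The log2 ratios were −3.32, −4.09 and −5.90, and those of *THY1*, *ENG*, *NT5E* and *PROCR* were between −2.97 and −3.29. The pooled *PRG4* level hides a wide range, with 1302 rpm in NCs of A951, 431 rpm in those of A952 and 16346 rpm in the 5 of A953. The part of RNA from other cells in the NC levels was not tested.

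Cells that met the NC rule for 1 of its genes were counted among the other groups. The 53 cells with at least 5 reads of *KRT19* but not of *TBXT* had 156 rpm of *THY1*, 7.25 rpm of *ENG*, 42.6 rpm of *NT5E* and 410 rpm of *PRSS23*. The 32 cells with *TBXT* alone had 433, 29.6, 131 and 332 rpm. The former lay between NCs and other cells in all 4 genes, and the latter lay above other cells in *THY1* and *NT5E* and between the groups in *ENG* and *PRSS23*.

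*ASPN* and *CILP* were then taken apart, with NCs left out. Of the other cells, 3377 had neither gene at 100 rpm, 577 had *ASPN* alone and 729 *CILP* alone. *ISLR* had 81.4 rpm in cells with neither, 82.6 rpm with *CILP* alone, 189 rpm with *ASPN* alone and 175 rpm with both. *CTSK* had 106, 130, 221 and 239 rpm in the same order. Cells with *ASPN* alone stood above cells with *CILP* alone in 4 of 4 tags for both genes, at 123, 157, 250.0 and 172 rpm against 51.6, 63.6, 146 and 59.3 rpm for *ISLR*. *ISLR* and *CTSK* thus followed *ASPN* more closely than *CILP*.

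*PRSS23* had 175 rpm with neither, 261 rpm with *CILP* alone, 396 rpm with *ASPN* alone and 493 rpm with both, an order that held under each tag but A951, where *ASPN* alone (441 rpm) stood above both (406 rpm). *THY1* had 294, 445, 398 and 563 rpm, and *PROCR* had 414, 529, 651 and 774 rpm. In neither of these genes was the order of *ASPN* alone and *CILP* alone the same in all 4 tags. *ENG* had 47.0, 37.5, 35.6 and 30.0 rpm, but its share of positive cells was 41.0%, 42.5%, 41.1% and 43.5%. Median depth rose from 183645 reads in cells with neither gene to 271695 with both, and its part in these levels was not tested.

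**Figure D4:**
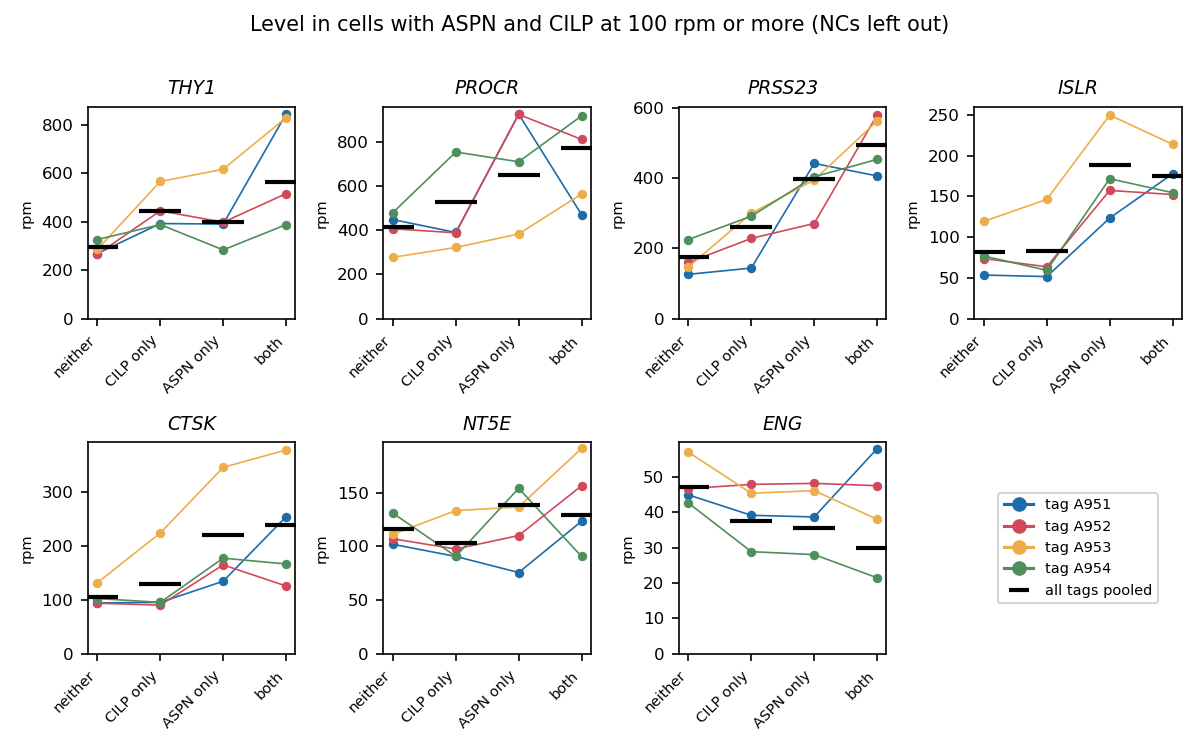
Level in rpm (linear axes from 0) of 7 genes in cells with neither *ASPN* nor *CILP*, 1 of them or both at 100 rpm or more. Dots joined by lines are tags and bars are all tags pooled; *ISLR* lies higher with *ASPN* alone (189 rpm) than with *CILP* alone (82.6 rpm) under every tag.

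Sorting panels require *THY1*, *NT5E* and *ENG* on the same cell. All 3 had a read in 24 NCs (7.74%, exact interval 5.02 to 11.3), 216 *ASPN*/*CILP*-positive cells (32.7%, 29.2 to 36.5) and 1177 other cells (25.1%, 23.9 to 26.4). With at least 5 reads of each the shares were 0.323%, 12.1% and 7.07%, and at 50000 reads per cell they were 0.334%, 13.4% and 10.3%. At 1 read *PROCR* was found in all 24 of the NCs, 214 of the 216 and 1085 of the 1177 cells. Of all cells in these groups, 75.5%, 95.6% and 84.7% had a read of it. Fewer of the cells with the 3 genes had *PROCR* in the stricter settings. It was found in 71 of 80 *ASPN*/*CILP*-positive and 229 of 331 other cells at 5 reads. At 50000 reads per cell it was found in 0 of 1 NC, 76 of 87 and 342 of 462 cells. Cells with the 3 transcripts were therefore not confined to the *ASPN*/*CILP*-positive group, and their share depended on the number of reads required.

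A cell had reads of a median of 4 of the 9 genes in NCs, 6 in *ASPN*/*CILP*-positive cells and 5 in other cells. The medians were 2, 5 and 4 genes at 50000 reads per cell and 1, 5 and 3 genes with at least 5 reads of a gene. Pairs of genes were compared at 50000 reads per cell, as the share of cells with the second gene among cells with and without the first. *CTSK* was found in 79.9% of *ASPN*/*CILP*-positive cells with *ISLR* and 59.3% of those without, and in 59.6% and 40.4% of other cells. At this depth it was the widest gap of any pair in both groups with the tags pooled. It was not the widest in every setting, since *THY1* with *ISLR* had 26.4 points and *ISLR* with *CTSK* 25.8 points in *ASPN*/*CILP*-positive cells at 5 reads, and *THY1* with *PRSS23* had 13.5 points in other cells of A951. At 1 read without thinning, *THY1* with *NT5E* had 37.8 points in *ASPN*/*CILP*-positive cells, against 19.6 for *ISLR* with *CTSK*. In other cells *THY1* with *CTSK* then had 21.8 points, against 19.0. In thinned *ASPN*/*CILP*-positive cells of A953, *NT5E* with *CTSK* had 19.0 points, against 14.2. The gap of *ISLR* with *CTSK* ran from 5.25 points under A951 to 25.9 points under A953 in other cells, and was 14.1 points in cells with neither *ASPN* nor *CILP*, a set defined after the values had been seen.

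*THY1* and *PRSS23* had a gap of 13.7 points in other cells (9.97 to 15.1 over the tags). *THY1* and *ISLR* had 17.7 points in *ASPN*/*CILP*-positive cells but 2.72 points in other cells, where the sign differed between tags. *ENG* and *NT5E* had a gap of 0.365 points in other cells, from −2.77 to 5.15 over the tags, and of 2.60 points in cells with neither *ASPN* nor *CILP*, above 0 in 4 of 4 tags. In other cells *THY1* had gaps of 6.48 and 4.64 points with these genes, which were above 0 in 3 of 4 tags and −2.08 and −2.63 points under A951. Among NCs, 38.4% of cells with *PRSS23* and 21.3% of those without had *CTSK*. These gaps are a description, since all cells come from 1 library and are not replicates.

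**Figure D5:**
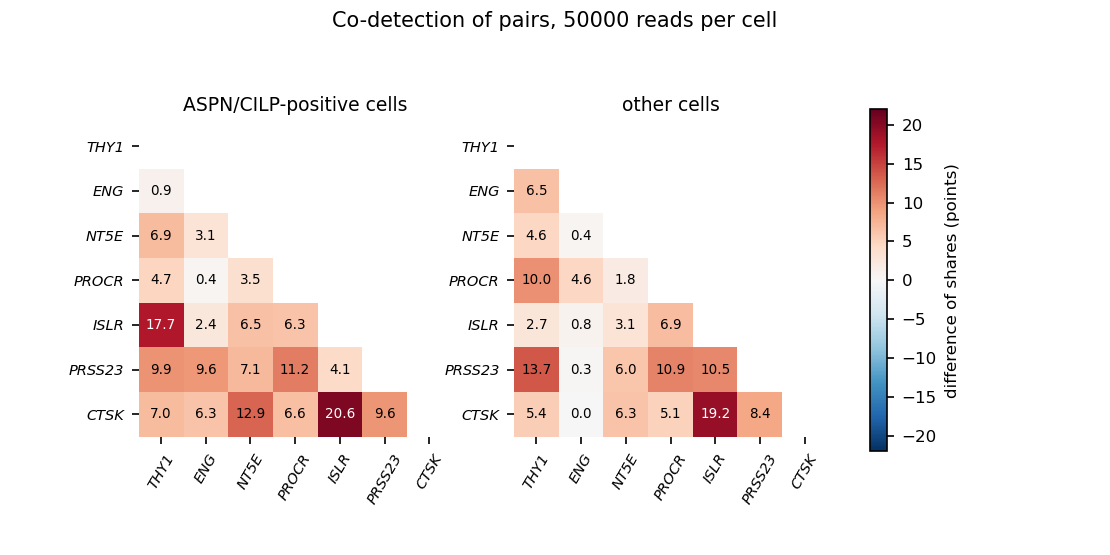
Difference, in percentage points, of the share of cells with the row gene between cells with and without the column gene, at 50000 reads per cell. *ISLR* with *CTSK* is the darkest square in both groups (20.6 and 19.2 points), and *ENG* with *NT5E* is near 0 in other cells.

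Across the 10 combinations of tag and group with at least 20 cells, all of the 7 detected members but *PRSS23* had genes of nearly the same pattern on the log2(rpm + 1) scale. *THY1* was closest to *ANKH*, a pyrophosphate transporter (Pearson r = 0.99), *LDLRAD3* and the fibrillar collagen *COL3A1*. *PROCR* was closest to *KIAA0040* (r = 0.99), the small proteoglycan *DCN* and *RPL27A*. *ISLR* was closest to *GLT8D2* (r = 0.99), *A4GALT* and *KREMEN1*. *ENG* was closest to *CENPV*, *TRPM7* and *LITAF*, and *NT5E* to *EIF4EBP1*, *ZEB1* and *RCL1*.

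*PRSS23* had no gene as close, the nearest being *CUEDC2* (r = 0.94), *RABAC1* and *EMC3*, and *CTSK* was closest to *DSEL* (r = 0.97), *MRPL32* and *RIN2*. For *TEK* and *LEPR*, near background, the closest were *RPS6KA6*, *SYT14* and *CNTNAP5*, and *UNC80*, *IGHM* and *EXOC8*, and nothing was read from them. Among the members, *ENG* and *NT5E* were most alike (r = 0.94), followed by *THY1* and *ISLR* (r = 0.93), while *PRSS23* had r between −0.07 and 0.43 with the others. The 10 combinations come from 1 library and are dominated by the gap between NCs and the rest, so these values are descriptive. Over the 8 combinations with at least 50 cells, all 3 genes nearest to *ENG* (*UHRF1BP1L*, *SLC12A7* and *TAF1D*) and to *CTSK* (*MRPS16*, *PKIG* and *COX5A*) were others, as were 2 of the 3 for *THY1*, *NT5E* and *PRSS23*. There *PRSS23* reached r = 0.98 with *CUEDC2* and *CTSK* reached 0.99 with *MRPS16*. The lack of a close gene for *PRSS23* thus depended on the combinations used.

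Genes that act with each member were read from lists. Their counts of calls stand beside the 24.9% of all genes tested that were higher and the 11.6% that were lower in NCs, and the 1.69% and 3.98% in *ASPN*/*CILP*-positive cells, and with few genes in a list no count was read as particular to it. Of the ligands, receptors and SMADs around *ENG*, 10 of 13 were tested and 5 were lower in NCs than in other cells, among them the ligands *TGFB1* (152 against 543 rpm) and *TGFB2* (24.6 against 244 rpm) and the receptors *TGFBR1* (30.0 against 120 rpm) and *BMPR2* (41.9 against 163 rpm). *TGFB3*, at 8.99 and 32.2 rpm, was the fifth, called in the pooled cells only. None was higher, and none was called in *ASPN*/*CILP*-positive cells. *GDF2*, *BMP10* and the receptor *ACVRL1*, with which *ENG* acts in endothelium, had 5 reads in under 1% of the cells of each group.

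Around *PROCR*, 4 of 8 genes were tested in NCs. *F3*, tissue factor, was 475 rpm in NCs and 14.6 rpm in other cells, and *PROS1*, the cofactor protein S, was 196 and 72.9 rpm, both called higher under both tags. None was lower, so that *PROCR* and these genes of coagulation stood in opposite order in NCs. For *ASPN*/*CILP*-positive cells 5 of the 8 were tested, the thrombin receptor *F2R* was called higher and the inhibitor *TFPI2* lower, neither under each of the tags. *THBD*, the thrombomodulin gene, was not analysed here.

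Around *NT5E*, 5 of 12 genes were tested in NCs. The adenosine receptors *ADORA2A* (18.7 against 0.690 rpm) and *ADORA1* (15.0 against 7.12 rpm) were higher, the former under both tags. *ENPP1*, which like *NT5E* cleaves nucleotides outside the cell, was lower (25.4 against 137 rpm), as was the adenosine transporter *SLC29A1* (14.5 against 51.4 rpm). *ADORA1* was lower in *ASPN*/*CILP*-positive cells, of 6 tested, and so was the phosphatase *ALPL*, which had 5 reads in under 1% of the cells of each group and from which nothing was read.

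Around *CTSK*, 11 of 14 cathepsins and cystatins were tested. In NCs 5 were higher, the lysosomal *CTSD* (672 against 291 rpm), *CTSH* (217 against 53.3 rpm), *CTSA* (101 against 30.4 rpm), *CTSZ* (39.7 against 18.7 rpm) and *CTSC* (24.3 against 9.11 rpm), while *CTSF* (248 against 516 rpm) and the inhibitor *CST3* (1919 against 4537 rpm) were lower. *CTSK* thus differed in direction from these 5 cathepsins. *CTSH* was lower in *ASPN*/*CILP*-positive cells (19.1 rpm), and no other cathepsin or cystatin was called.

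Of other secreted serine proteases and their inhibitors, listed for *PRSS23*, 8 of 10 were tested in NCs. The protease *HTRA1* (2360 against 1115 rpm) was higher, though not under both tags. *SERPINA3* (455 against 4405 rpm), *SERPING1*, *SERPINE2*, *HTRA3* and *PRSS35* were lower. *SERPINE2* was lower in *ASPN*/*CILP*-positive cells (227 against 641 rpm), where 8 were tested.

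Of leucine-rich repeat genes listed for *ISLR*, 2 of 7 were tested in NCs and both were lower, *OGN* (23.2 against 397 rpm) and *OMD* (0.424 against 60.3 rpm). *OMD* was lower in *ASPN*/*CILP*-positive cells too, at 11.9 rpm, where 3 were tested and *ISLR* had the opposite direction. Of the integrins and the syndecan around *THY1*, 5 of 8 were tested in NCs and 6 in *ASPN*/*CILP*-positive cells, and none was called. *ITGA5*, with most reads, had 895, 789 and 921 rpm in NCs, *ASPN*/*CILP*-positive cells and other cells. Between NCs and *ASPN*/*CILP*-positive cells, *ITGAM*, an integrin of leukocytes near background, was called lower (0.272 against 0.562 rpm), also under both tags.

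Around *TEK*, 3 of 6 genes were tested in NCs, and the phosphatase *PTPRB*, known to act on TEK in endothelium, was higher (25.0 against 1.64 rpm). Higher in *ASPN*/*CILP*-positive cells were *ANGPTL1* (17.0 against 3.82 rpm) and *PTPRB*, and *ANGPT1* (2.58 against 6.01 rpm) was lower, none under each of the tags. *TIE1* had 5 reads in under 1% of the cells of each group. Around *LEPR*, 6 of 8 genes were tested and *JAK2*, the kinase bound to the receptor, was lower in NCs (41.3 against 115 rpm), with none called in *ASPN*/*CILP*-positive cells. The leptin gene *LEP* had 5 reads in under 1% of the cells of each group.

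Further stromal progenitor markers did not move as one in NCs. Of 14, 11 were tested, 7 were lower and 3 were higher, where 11.6% and 24.9% of all genes tested were. *PDGFRA* (0.923 against 46.1 rpm), *PRRX1* (1.60 against 45.7 rpm), *GREM1* (4.31 against 173 rpm), *PDPN* (34.9 against 455 rpm), *CD55*, *ITGA11* and *VCAM1* were lower. The adhesion molecules *ALCAM* (941 against 33.3 rpm) and *CD44* (672 against 187 rpm), sorting markers of stromal cells as well, were higher. The third, *NES* (3.45 against 0.646 rpm), had 5 reads in under 1% of the cells of each group, and nothing was read from it. *THY1*, *NT5E* and *ENG* thus stood in opposite order to *CD44* and *ALCAM* in NCs. In *ASPN*/*CILP*-positive cells 12 were tested, none was higher, and *CD44* (37.1 rpm), *ALCAM* (10.1 rpm) and *PDPN* (134 rpm) were lower under each of the 4 tags.

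Of 15 fibroblast genes, 11 were tested in NCs and 6 were lower, *COL3A1* (138 against 1645 rpm), *COL1A1*, *FAP* (9.55 against 286 rpm), *LUM*, *FBLN1* and *FBLN2*. *S100A4* (985 against 30.5 rpm) and *COL6A3* (212 against 102 rpm) were higher. In *ASPN*/*CILP*-positive cells 12 were tested. The small proteoglycan *LUM* was higher, at 815 against 197 rpm, and *COL1A1* (236 against 646 rpm) and *FBLN2* (1.57 against 14.1 rpm) were lower.

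Markers of other cell types known to carry some of these genes were summed. The endothelial list summed to 528 rpm in NCs, 214 rpm in *ASPN*/*CILP*-positive cells and 175 rpm in other cells, and was led by *FLT1* in NCs (508 rpm) and by *ERG* in the others (186 and 140 rpm). Of 5 genes tested in NCs *FLT1* was higher, and *ERG* (14.5 rpm) and *ESAM* (1.38 against 8.10 rpm) were lower, all under both tags. *PECAM1*, *CDH5*, *KDR*, *TIE1*, *EMCN*, *EGFL7* and *VWF* had 5 reads in under 1% of the cells of each group. The osteoclast list, which bears on *CTSK*, summed to 3.59, 12.2 and 3.42 rpm, the second value being that of A954 (20.2 rpm, against 1.33 to 3.88 rpm under the other tags), and *ACP5*, *MMP9*, *TNFRSF11A* and *DCSTAMP* had 5 reads in under 1% of the cells of each group. The blood list summed to 28.1, 25.9 and 22.9 rpm and was led by *CD68*. The pericyte and smooth muscle list was high in NCs, at 4831 rpm against 103 and 201 rpm, of which *TAGLN*, the actin-binding transgelin, made 4686 rpm, and *RGS5* (8.45 against 2.95 rpm in other cells) and *ACTA2* (70.7 against 5.57 rpm) were also called higher in NCs, neither under both tags, whereas *MYH11*, *KCNJ8* and *DES* had 5 reads in under 1% of NCs. Its part in the NC levels of the members was not tested. In *ASPN*/*CILP*-positive cells *TAGLN* was called lower under each of the tags, and *ACTA2* and *MYH11* were called higher, neither under each. The osteoblast list summed to 14.1, 11.6 and 73.2 rpm. Its 3 genes tested in *ASPN*/*CILP*-positive cells, *IBSP*, *RUNX2* and *ALPL*, were called lower under each of the 4 tags. In NCs 1 was tested, *RUNX2*, which was called higher, though not under both tags.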

How the data were processed

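The authors aligned TAS-seq reads with HISAT2 2.2.1 and assigned them to whole genes with featureCounts 2.0.2, per the labels and the methods, with the genome build not given in the sources used here. The authors deposited whole-number read counts for each gene in each cell, in which spliced, unspliced and ambiguous reads are summed, without molecular identifiers or normalization. Of values above 0, 32.2% were a single read.

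From 5723 cells, 42 doublets by tag and 7 cells without a tag were removed, and no further doublet caller was run. Limits of 200 to 9000 genes and under 5% mitochondrial reads, over 13 genes, removed 21 more. A second table of 1358 cell columns, which the labels do not list, was not used, and 15 barcodes occur in both. The tag library holds no expression.

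Pooled rpm, exact Poisson and Clopper-Pearson intervals (95%) and log2 ratios, with a floor of 3 reads per group, were obtained with scipy 1.17.1, pandas 2.3.3 and numpy 2.4.6 (Python 3.11.15), and figures with matplotlib 3.10.9. The script was tested on simulated data. Tags entered a comparison with at least 20 cells of both groups. There was 1 library and no test.

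Genes named are the 9 members, the 3 genes most like each, and genes of fixed lists past 2-fold or leading a list. Genes named as near absent or not called were chosen after their values were seen. Members and lists were chosen with earlier results of these data known. Alternatives changed the thresholds, the averaging, the depth and the tags. One gene of the protease list is not reported here.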

Additional observations from a re-analysis of the deposited data

Results flagged for a closer look

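Levels and shares under the 4 tags were examined in *ASPN*/*CILP*-positive and other cells, 36 sets of 4 values, of which 3 had 1 tag far from the rest by Dixon's criterion, which chance meets in about 1 in 20. A read of *ISLR* was found in 58.33% of *ASPN*/*CILP*-positive cells of tag A951 (36 cells), against 73.7% to 76.8% under the other tags. The *LEPR* level in the same 36 cells was 2.847 rpm, and 0.211 rpm without the cell that held most of its reads. A read of *TEK* was found in 6.228% of other cells of tag A952, where the other tags had 7.62% to 7.81%.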

How the results depend on the processing

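No paired analysis was possible because there was 1 expression library with no replicate samples; ratios within each tag stand in the report. No called value changed sign. A value was taken to keep its size where a log2 ratio stayed within 1 SD of the ratios under the tags, a count within 1.5 times, a share within its exact interval, and the 3 genes most like a member were the same 3. Of the summary values 194 kept their size and 43 moved, and of the single-gene values 383 kept it and 112 moved. Uncalled log2 ratios near 0 changed sign in some settings, those of *TEK* in all 3 comparisons, *PRSS23* in NCs against *ASPN*/*CILP*-positive cells, and *NT5E* (−0.24 without A953) and *LEPR* in *ASPN*/*CILP*-positive against other cells. For NCs against other cells, the median log2 ratio of the 9 genes, −2.41 in the report, was −3.08 as the mean over cells of rpm, −1.41 as the mean of log2(rpm + 1), −1.45 as the mean over tags and −1.56 with *KRT19* or *TBXT* alone enough. No member was 2-fold higher with thinned cells, with the mean over cells, or without tag A952 (range 0 to 1 over tags left out). The 2-fold call of *PRSS23* in NCs was thus lost in these 3 settings.

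For NCs against *ASPN*/*CILP*-positive cells the median, −2.64 in pooled cells, was −2.83 in thinned cells, −3.24 and −3.16 as means of rpm and of log2, −2.73 over tags, −1.94 with either NC gene, −2.76 and −2.55 with 300 and 50 rpm as the threshold, and −3.00 without the NCs of A953 and A954, an alternative added after the data were seen. Leaving out a tag gave −3.10 to −1.78, the last without A952.

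For *ASPN*/*CILP*-positive against other cells the median was 0.73 in pooled cells and 1.82 on log2 means. The members 2-fold higher numbered 2 in thinned cells, 5 on log2 means, 2 over tags, and 4 without A954 (range 1 to 4), beside 114, 441, 240 and 241 of all genes, against 1 member and 170 genes in the report. Genes 2-fold lower were 213 in thinned cells, and over the tags left out they ranged from 395 to 676 (without A954).

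On log2 means, genes 2-fold higher and lower were 1136 and 670 (NCs against other cells) and 441 and 37 (*ASPN*/*CILP*-positive against other cells), and 781 were higher in NCs than in *ASPN*/*CILP*-positive cells. Without the detection filter they were 4644 and 2068, 1061 and 1522, and 4106 and 1751 in the 3 comparisons. The cells with *THY1*, *NT5E* and *ENG* were 7.74%, 32.7% and 25.1%, and 0.323%, 12.1% and 7.07% at 5 reads and 0.334%, 13.4% and 10.3% in thinned cells. The causes were not tested. *TEK* and *LEPR* rested on 602 and 597 reads in all.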
